A study of Mus musculus with 2 samples.

Results

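The mouse genes for miR-199 and miR-214 are Mir214, Mir199a-2, Mir199b and Mir199a-1. They were taken by symbol from GENCODE M21 and make up 4 of the 2202 microRNA (miRNA) genes in the count tables. They were chosen by name and selected on their own-strand read counts in both libraries, which were already known. Their levels and ratios are therefore a description, with no test. The study is microRNA-seq of left cerebral cortex from male B6CASTF1/J mice aged 4 days (offspring of C57BL/6J and CAST/EiJ parents), with no treatment named in the labels. It has 1 group of 2 libraries, labelled biological replicates 1 and 2, made from total RNA with a size range under 30 nt. The labels number the males differently but give a single donor identifier for both, so the labels do not settle whether they come from separate animals. What the spread between the libraries reflects was not tested. The tissue was not sorted, so each value is an average over the cells of the dissection.

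miRNAs are cut from hairpin precursors, and the mature strand finds its targets mainly through its seed, bases 2 to 8. Mir199a-2 and Mir214 are both carried by Dnm3os, a long noncoding RNA on the strand opposite to an intron of the dynamin gene Dnm3. Dnm3os is known from mesenchyme: Twist1, a mesenchymal transcription factor, activates it, and mice without it have skeletal and growth defects. The family is widely used as a sign of fibroblasts, smooth muscle and other mesenchymal cells, and miR-214 is also known from skeletal muscle, where it acts on the Polycomb gene Ezh2. In brain tissue such cells lie mainly in the meninges and vessel walls.

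All 4 hairpins lie opposite to introns of dynamin genes, which act in membrane fission. Mir199a-2 (ENSMUSG00000070126.1) is at chr1:162217814-162217923 and Mir214 (ENSMUSG00000065516.1) at chr1:162223368-162223477, both on the plus strand of mm10 and 5444 bases apart. Both fall in Dnm3os exons, in 5 of 5 and 3 of 3 of the Dnm3os transcripts that span them. Mir199b (ENSMUSG00000092807.1) is at chr2:32318460-32318569 on the plus strand, opposite to introns of Dnm1. Mir199a-1 (ENSMUSG00000065547.1) is at chr9:21496495-21496564 on the minus strand, opposite to introns of Dnm2. No dynamin transcript of GENCODE M21 has an exon over any of the 4 hairpins.

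The mature sequences show which reads can be tied to 1 gene, and they are shown for that reason. They come from RefSeq on GRCm38.p6, in which all 4 genes were matched, with the seed in capitals.
miR-214-3p: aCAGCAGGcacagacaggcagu
miR-214-5p: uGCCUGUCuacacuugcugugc
miR-199a-5p: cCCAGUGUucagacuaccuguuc
miR-199a-3p and miR-199b-3p: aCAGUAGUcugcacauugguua
Both mature sequences of Mir214 occur in no other hairpin of the RefSeq table. The sequence of miR-199a-5p is in the hairpins of Mir199a-1 and Mir199a-2. The 3p sequence of miR-199 is the same 22 bases in all 3 Mir199 hairpins. The miR-199-3p and miR-214-3p seeds differ at 2 positions, U5C and U8G, where miR-199a-3p is given first and positions count from the 5′ end of the mature strand. Of other mature sequences in the table, miR-761 has the seed of miR-214-3p, and its gene Mir761 had 0 counts in both libraries.

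The hairpins follow, 5′ to 3′, with the mature strands that RefSeq lists in capitals, to show what lies between and outside them.
Mir214: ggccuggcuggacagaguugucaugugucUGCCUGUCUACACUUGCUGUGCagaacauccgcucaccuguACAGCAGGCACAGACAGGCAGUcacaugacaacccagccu
Mir199a-2: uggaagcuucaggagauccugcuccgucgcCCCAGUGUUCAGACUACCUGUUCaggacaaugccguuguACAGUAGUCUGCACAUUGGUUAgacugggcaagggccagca
Mir199b: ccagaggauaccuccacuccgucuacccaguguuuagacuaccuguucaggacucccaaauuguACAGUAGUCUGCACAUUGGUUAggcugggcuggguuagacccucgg
Mir199a-1: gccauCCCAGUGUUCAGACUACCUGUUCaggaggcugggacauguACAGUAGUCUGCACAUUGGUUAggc
Mir199b has a single listed mature strand. The arm before its loop holds a stretch that matches miR-199a-5p at all but 1 of 23 bases, bases 26 to 48 of the hairpin. The difference is C10U, with miR-199a-5p given first and position 1 at its 5′ end, outside the seed. The 2 stretches are shown with that base in capitals.
miR-199a-5p: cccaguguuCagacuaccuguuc
Mir199b bases 26 to 48: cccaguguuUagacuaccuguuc

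Shared sequence covered the listed mature strands of the Mir199 genes and left most of the rest of each hairpin distinct. Mir199a-2 shares a run of 27 bases with Mir199b, which holds the whole 3p strand with 4 bases before it and 1 after it. It shares another 27 bases with Mir199a-1, which start at the first base of miR-199a-5p and end 4 bases after its last. Mir199b and Mir199a-1 share 28 bases around the 3p strand. Mir214 shares at most 7 bases in a row with any of the other 3. Every window of 20 bases was looked up in all annotated transcripts on both strands. Hits in the genes that overlap the hairpin itself were left out. These were Dnm3os and Dnm3 for Mir214 and Mir199a-2, Dnm1 for Mir199b and Dnm2 for Mir199a-1. For Mir214, 91 of 91 windows were found at no gene besides these. That number was 75 of 91 for Mir199a-2, 81 of 91 for Mir199b and 34 of 51 for Mir199a-1. Bases 26 to 48 of Mir199b, which resemble miR-199a-5p, are not a listed strand. No window that starts in them was found at another gene.

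**Figure D1:**
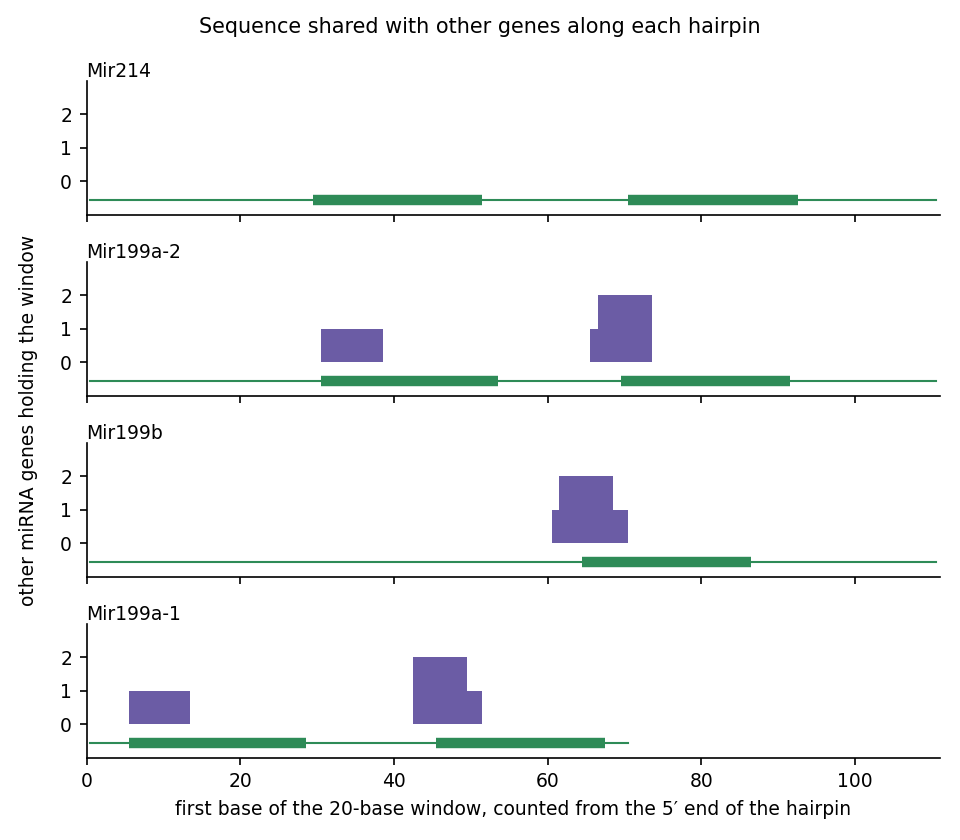
Number of other miRNA genes that hold each 20-base window (bars, y axis) against the first base of the window in the hairpin (x axis), for the 4 genes, with the hairpin as a thin line and its listed mature strands as thick lines. Mir214 has no shared window, and the shared windows of the Mir199 genes begin near the first bases of their mature strands.

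The tables hold reads per hairpin gene, and in their layout a read placed at several sites is given to no gene. Such reads were 46.1% of 10029659 reads in the library labelled replicate 1 and 39.8% of 6800067 in the library labelled replicate 2. How many of them are miR-199 reads was not tested, so the Mir199 counts are uncertain and may be far too low as measures of miR-199. Own-strand reads of miRNA genes came to 2999032 and 3577964, and levels are counts scaled to these totals, the usual CPM. A small RNA read spans a whole mature strand, so counts were not divided by hairpin length. Intervals are exact 95% binomial intervals (Clopper-Pearson) and cover counting error only.

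The libraries differed in markers of the labelled tissue. The 16 neuron miRNAs summed to 42785 CPM in the library labelled replicate 1. They came to 1320 CPM in the library labelled replicate 2. The most abundant of them, Mir128-1 and Mir137, had 53592 and 40242 counts in the former and 2623 and 99 in the latter. Mir9-2 and the 3 Mir124a copies were at 0 in the library labelled replicate 2. These 4 genes had only 7, 8, 3 and 1 counts in the other, so they tell little. The 9 striated muscle miRNAs (the list labelled skeletal muscle) summed to 73.0 and 157120 CPM. Mir206 alone gave 70.7 and 156302 CPM of these sums. In the library labelled replicate 1, 6 of these 9 were at 0 (Mir1a-1, Mir1a-2, Mir133a-1, Mir133a-2, Mir208a and Mir208b). In the other, 1 was at 0 (Mir133a-2). Mir9, Mir124a, Mir1a and Mir133a are each held as several gene copies, numbered in their symbols. A read that matched more than 1 copy would be missing from these counts, as for the Mir199 genes. How many were missing was not tested, so a count of 0 or near 0 does not show that the miRNA was absent. By the sums of both lists, the library labelled replicate 2 goes against its label, and each member is given below by library. The part of these cells in the levels of the members was not tested. In bulk tissue, fewer cells of a type and less RNA per cell cannot be told apart.

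Mir214 had by far the most reads placed at a single site of the 4 genes. Since miR-199 reads can be lost to several sites, this does not show that miR-214 was more abundant than miR-199. It had 347 counts, or 115.7 CPM (interval 104 to 129), in the library labelled replicate 1. The library labelled replicate 2 held 17140 counts, or 4790 CPM (interval 4719 to 4863). The library labelled replicate 2 was the high one, and the intervals lay far apart. The gene ranked 197 in the former and 34 in the latter among all miRNA genes. Its mean was 2453 ± 3306 CPM (SD, n = 2), so the spread between the libraries exceeded the mean.

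Mir199a-2, the partner of Mir214 on Dnm3os and a source of miR-199a, had 0 and 155 counts. The exact interval of a count of 0 reaches 1.23 CPM in the library labelled replicate 1, against 43.3 CPM (interval 36.8 to 50.7) in the other. Mir199b, the Dnm1 copy, had 11 and 137 counts. These are 3.67 CPM (interval 1.83 to 6.56) and 38.3 CPM (interval 32.1 to 45.3), so it was also higher in the library labelled replicate 2. Mir199a-1, the Dnm2 copy, had 0 counts in both, with intervals that reach 1.23 and 1.03 CPM. A count of 0 for a gene whose mature strands both occur elsewhere does not show that the gene was silent.

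In both libraries the same gene was at the top of the counted levels. By reads placed at a single site, Mir214 lay above the other 3 by intervals that did not overlap. In the library labelled replicate 2, Mir199a-2 and Mir199b came next and did not differ beyond their intervals. Both lay above the limit for Mir199a-1. The library labelled replicate 1 had Mir199b second, its interval above the upper end of 1.23 CPM for the 2 genes at 0. The Mir199 genes are not equally open to placement at a single site. Both listed strands of Mir199a-2 and Mir199a-1 occur in other hairpins, while bases 26 to 48 of Mir199b start no shared window. The order among the Mir199 genes is thus one of counts, and the part of placement in it was not tested.

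**Figure D2:**
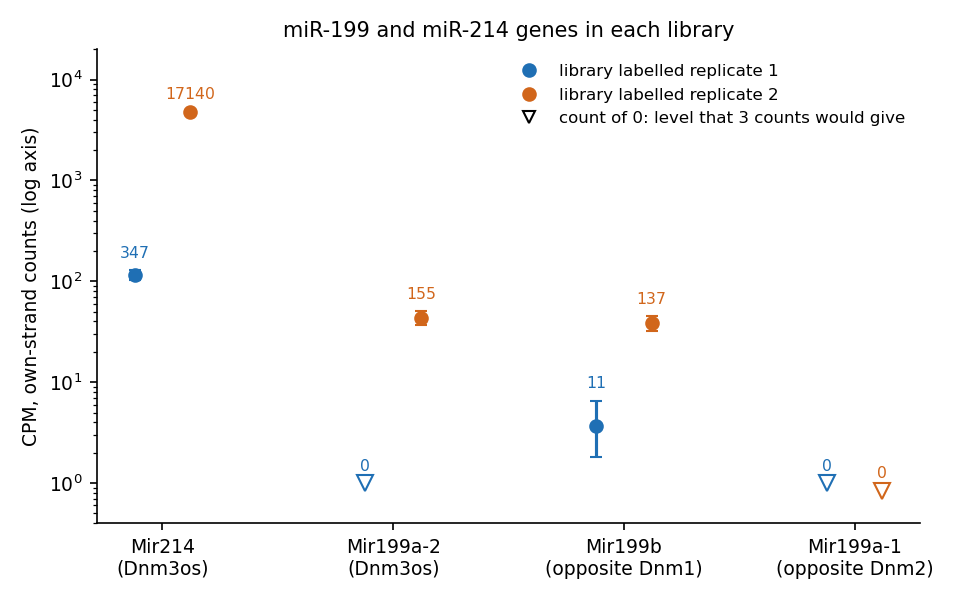
Own-strand CPM (log axis) of the 4 genes in the library labelled replicate 1 (blue) and replicate 2 (orange), with exact 95% binomial intervals as bars and the read count printed above each point. Open triangles mark counts of 0 at the level 3 counts would give; Mir214 has the highest counted level in both libraries, at 115.7 and 4790 CPM.

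Summed over the 4 genes, the libraries held 358 and 17432 counts, which is 0.0119% (interval 0.0107 to 0.0132) and 0.487% (0.480 to 0.494) of all counts tied to miRNA genes. Mir214 and Mir199a-2, the genes on Dnm3os, supplied 347 and 17295 of these. Their share was 96.9% in the library labelled replicate 1 (interval 94.6 to 98.5) and 99.2% in the other (interval 99.1 to 99.3). The other 2 loci supplied 11 and 137 counts, all from Mir199b. Nearly all counts of the 4 genes were thus tied to Mir214, and the 3 Mir199 genes together gave 3.07% and 1.68% of them.

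Between the libraries, the Dnm3os pair and the remaining loci had these ratios, as a description. The pair went from 115.7 to 4834 CPM, a 41.8-fold ratio of replicate 2 over replicate 1 (interval 37.6 to 46.6). The other loci went from 3.67 to 38.3 CPM, a 10.4-fold ratio (interval 5.65 to 21.4). With 1 library on each side, the intervals hold no spread between samples and do not show that the loci differ. The same comparison can be made inside each library, where no scaling enters. For every 100 counts of Mir214 the library labelled replicate 1 had 3.17 of Mir199b (interval 1.57 to 5.74) and the other had 0.799 (0.671 to 0.946). Mir199b was thus 3.97 times higher relative to Mir214 in the library labelled replicate 1, a value that rests on 11 counts there.

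Within the pair the data could not separate the libraries. For every 100 counts of Mir214, Mir199a-2 had 0.904 (interval 0.767 to 1.06) in the library labelled replicate 2. At that ratio the 347 counts of Mir214 in the library labelled replicate 1 would go with 3.14 counts of Mir199a-2. The exact interval of the 0 found there reaches 1.07 per 100 and covers the interval of the other library. A different ratio of the 2 Dnm3os hairpins was not detectable at this depth.

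As single genes, 3 of the 4 could be given a ratio, having at least 10 counts summed over both libraries. Mir199a-2 reached that minimum through the library labelled replicate 2 alone, where it is high. Mir214 was 41.4-fold higher in the library labelled replicate 2 (log2 5.37, interval 5.22 to 5.53). Mir199a-2 was 43.3-fold higher (log2 5.44) with its 0 set to 3 counts. The lower end of its exact interval was a log2 of 5.12, with no upper end. Mir199b was 10.4-fold higher (log2 3.38, interval 2.50 to 4.42). All 3 lay past 4-fold, where 67 of 463 miRNA genes (14.5%) were at least 4-fold higher and 205 (44.3%) at least 4-fold lower. The members were chosen with these ratios known, so nothing is read from that count.

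**Figure D3:**
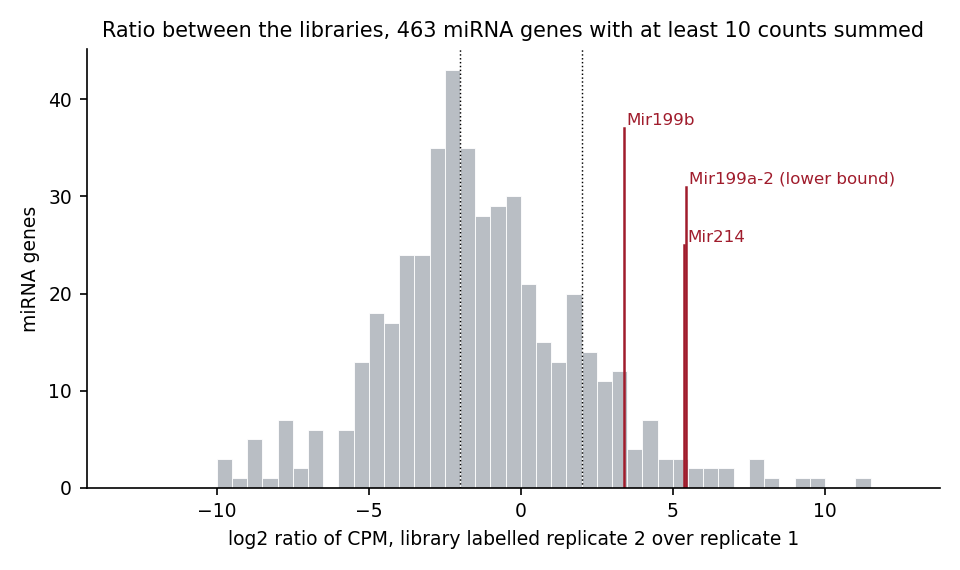
Histogram of the log2 ratio of CPM (x axis), library labelled replicate 2 over replicate 1, for 463 miRNA genes with at least 10 counts summed (y axis, number of genes), with dotted lines at 4-fold each way. Red lines place Mir214 at 5.37, Mir199b at 3.38 and Mir199a-2 at 5.44, all on the right of the distribution. The value of Mir199a-2 has its 0 set to 3 counts. It is labelled a lower bound in the plot, though the exact interval starts at 5.12.

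Scaling changed the size of these ratios and not their direction. The library labelled replicate 2 gave 15.6% of its counts to Mir206, a skeletal muscle miRNA, and leaving that gene out of the totals added 0.25 to every log2 ratio. TMM scaling added 1.40, and the part of Mir206 in that shift was not tested. The ratio of Mir214 was then 109.5-fold and that of Mir199b 27.6-fold. The median log2 ratio of all 463 genes was -1.67 with CPM and -0.27 with TMM, so Mir214 lay 7.04 above it under either scaling. At least 4-fold higher genes made up 14.5% with CPM and 24.2% with TMM, and lower ones 44.3% and 23.8%.

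**Figure D4:**
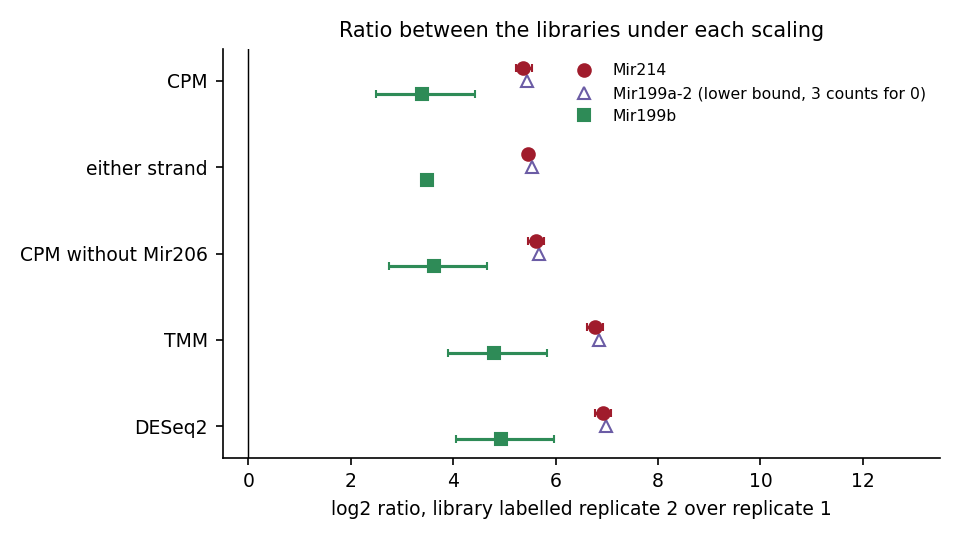
Log2 ratio of the library labelled replicate 2 over replicate 1 (x axis) for Mir214, Mir199a-2 (open, a lower bound) and Mir199b under 5 ways of counting or scaling (y axis), with exact 95% intervals as bars except for the bound and for reads on either strand. Every point lies right of 0, and TMM and DESeq2 place Mir214 at 6.78 and 6.92.

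The strand columns showed that these reads belong to the hairpins' own strand. Mir214 had 2 and 1 counts on the opposite strand beside 347 and 17140 on its own, and 349 and 17141 on either. Mir199a-2 and Mir199b had 0 on the opposite strand in both libraries. The 64 miRNA genes that overlap a miRNA gene on the other strand include none of the 4, so no count was lost as ambiguous between miRNA genes. The nearest other miRNA gene to Mir199b, Gm23363, lies 116 bases away and had 1 count in each library.

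Across the tables, counts did not follow the sharing of mature strands in a simple order. Of the 1018 genes with a mature sequence in RefSeq under the same symbol, 40 had every listed mature strand inside another gene's hairpin. The 3 Mir199 genes are among them, Mir199b by its single listed strand. Of those 40 genes, 9 (22.5%) reached 10 counts summed and 28 had none. Of the 923 genes with no shared mature strand, to which Mir214 belongs, 364 (39.4%) reached 10 counts. Of the 55 with some strands shared, 44 (80.0%) did, the highest share of the 3 classes. The classes also differ in which miRNAs they hold, and the part of placement in the difference was not tested.

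The genes whose levels were nearest to those of Mir214 came from other chromosomes. Nearness was the distance in log2 CPM over both libraries, a measure with 2 points per gene, among 538 genes counted in each. Mir299a was nearest (distance 0.32), with 281 and 16184 counts. Mir493 followed (0.73), with 210 and 16283, and then Mir10b (0.73), with 576 and 17140. Mir543 (1.59) had 608 and 6646 counts, and Mir381 (1.64) had 996 and 26233. Mir10b lies in the Hox cluster of chromosome 2, and the other 4 lie on chromosome 12 in the imprinted Dlk1-Dio3 region. Mir10b and Mir214 have the same count of 17140 in the library labelled replicate 2, from separate entries with different counts in the other library.

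The miRNAs of mesenchyme and vessel wall had mixed ratios. Of the 5 genes of this list, 1 was at least 4-fold higher and 1 at least 4-fold lower in the library labelled replicate 2, or 3 and 0 with TMM. The median log2 ratio was 0.64, beside -1.67 for all genes tested. Mir143, of smooth muscle and fibroblasts, had 14193 and 84860 counts, a 5.01-fold ratio. Its cluster partner Mir145a had 1126 and 1491 counts, a ratio of 1.11. Endothelial Mir126a had 35984 and 81797 counts, a 1.91-fold ratio. Mir21a, known from activated fibroblasts, had 6694 and 12459 (1.56-fold), and Mir140, a miRNA of cartilage, had 13012 and 2237, or 6.94-fold lower. All of these ratios lay under the 41.4 of Mir214, and Mir140 went the other way with CPM and with TMM (log2 -1.39).

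The X-linked Mir322 cluster, known from muscle and other mesodermal cells, was higher throughout in the library labelled replicate 2. All 7 of its genes were past 4-fold there (14.5% of all genes tested), with a median log2 ratio of 2.63. Mir322 had 12134 and 86819 counts (log2 2.58), Mir351 had 2305 and 17014 (6.19-fold), and Mir542 had 270 and 5091 (15.8-fold). Mir450-1 had the highest ratio of the cluster, a log2 of 5.26 from 5 and 228 counts, close to the 5.37 of Mir214. The skeletal muscle list had 6 of 7 tested genes past 4-fold higher, beside the same 14.5%, with a median log2 ratio of 7.81 that includes genes at 0 set to 3 counts. The Hox cluster list had 4 of 5, with a median of 6.03 made the same way. The ratio of Mir214 lay below the medians of both lists. The neuron list had 0 of 12 tested genes past 4-fold higher and 11 past 4-fold lower, where 44.3% of all genes tested were lower, with a median of -4.99. All tested genes of the muscle list except Mir206 reached 10 counts only through the library labelled replicate 2, where they are high. Some genes of the Hox, Mir322 and neuron lists also passed through a single library, the high one. The filter favours large ratios in such genes, so nothing is read from these list counts and medians.

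**Figure D5:**
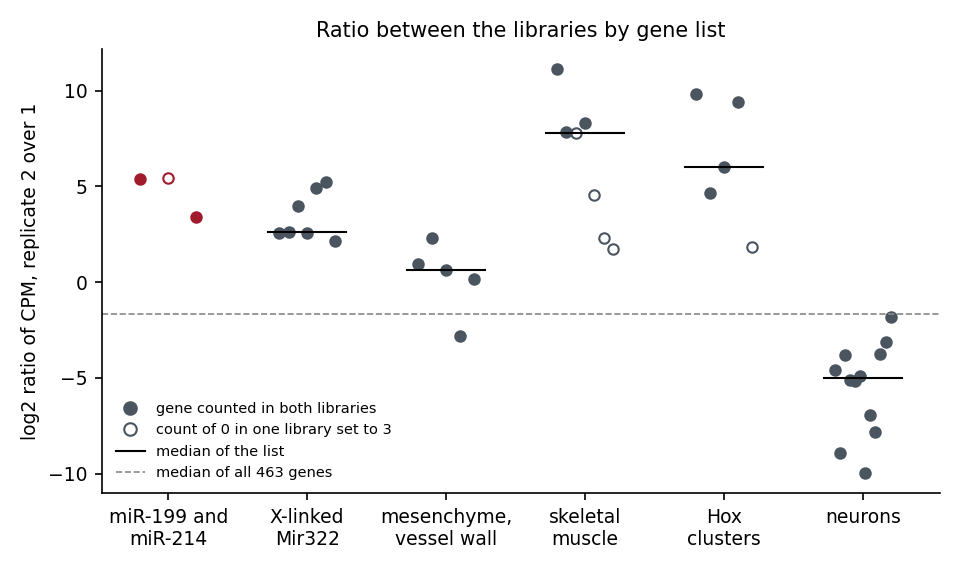
Log2 ratio of CPM (y axis), library labelled replicate 2 over replicate 1, for the tested genes of each list (x axis, 1 point per gene), with list medians as black lines, the median of all genes dashed, and open points for genes with a count of 0 set to 3. The miR-199 and miR-214 genes (red) lie between 3.38 and 5.44, above the mesenchyme and vessel wall list and far above the neuron list, whose median is -4.99.

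The promoter of Dnm3os, which carries Mir214 and Mir199a-2, is printed as a description. Dnm3os RNA was not measured here, and the part of the promoter in the ratios was not tested. The window runs from 250 bases before to 50 after the start in RefSeq, chr1:162217373-162217672 on the plus strand of GRCm38.p6. Capitals mark the E-box letters CANNTG, the kind of site that Twist1 and other bHLH factors bind. The pattern CANNTG reads the same on both strands, while the marked words themselves do not.
Dnm3os promoter: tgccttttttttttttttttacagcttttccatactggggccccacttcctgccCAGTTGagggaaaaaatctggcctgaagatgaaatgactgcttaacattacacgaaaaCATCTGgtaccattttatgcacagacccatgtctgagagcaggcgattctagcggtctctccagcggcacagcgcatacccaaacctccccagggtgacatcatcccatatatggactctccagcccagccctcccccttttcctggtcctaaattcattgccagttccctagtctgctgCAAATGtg
The window holds 3 matches. Of 32851 promoter windows of the same length, 72.3% hold at least 1 and 17.6% hold at least 3. A match of these letters is a description and not a site.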

How the data were processed

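The authors deposited 1 table of raw read counts per miRNA gene for each library. Assembly mm10 and annotation GENCODE M21 are named in the deposited text files. The aligner is not given in the sources used here, nor is the counter. The 3 columns are laid out like STAR's gene counts: reads on either strand, on the gene's own strand and on the opposite strand. Entries without a gene stayed out of library sizes. On the own strand these were unplaced reads (18.4% and 6.11%), reads at several sites (46.1% and 39.8%) and reads outside miRNA genes (5.55% and 1.47%).

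Own-strand counts were scaled to CPM. All 2202 identifiers matched GENCODE M21. The libraries form 1 group, so edgeR's quasi-likelihood test could not be fitted and no p-value was computed. Ratios were taken for genes that reached 10 counts over both libraries. A count of 0 was set to 3 per library, and a gene was called past 4-fold. The ratio and its interval were run on simulated counts with set folds and counting error only. This checks the code and cannot speak for the spread between libraries. Over the tested genes the counts differed beyond sampling noise (chi-square per degree of freedom 5667), so the tables are not 1 library deposited again; this does not show separate animals. No genome sequence was used here, so windows were matched to GENCODE M21 transcripts in place of the planned genome search. Introns and intergenic copies were thus not searched.

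The members and lists were chosen with earlier results of these data known. Besides the members, the text names overlapping genes, fixed lists (at most 3 genes each, all 5 for mesenchyme and vessel wall; Mir450a-1 and Mir450a-2 under their annotated symbols Mir450-1 and Mir450-2) and the 5 genes nearest to Mir214. Genes at 0, Mir450-1, Mir761 and Gm23363 were named after their values were seen. Alternatives were TMM (edgeR 4.0.16, R 4.3.3), DESeq2 1.42.0 size factors, totals without Mir206, the either-strand column, other count minimums (1 and 100), windows of 18 and 22 bases, and each library alone. Intervals used scipy 1.17.1 and tables pandas 2.3.3 in Python 3.11.15.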

Additional observations from a re-analysis of the deposited data

How the results depend on the processing

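All 3 ratios stayed positive under every scaling tried. As log2 values, Mir214 was 6.78 with TMM, 6.92 with DESeq2 size factors and 5.62 without Mir206. Mir199a-2, with its 0 set to 3 counts, was 6.84 with TMM and 6.99 with DESeq2, and Mir199b was 4.79 and 4.94. These shifts follow from the size factors, which move every gene by the same amount. Genes at least 4-fold higher numbered 67 with CPM, 112 with TMM and 117 with DESeq2. Levels depended strongly on the library. With each library alone, the level was 115.7 to 4790 CPM for Mir214, 0 to 43.3 for Mir199a-2 and 3.67 to 38.3 for Mir199b, and the Dnm3os share was 96.9% to 99.2%. The 11 counts of Mir199b and the 0 of Mir199a-2 in the library labelled replicate 1 limit every statement on these genes. The planned search of the genome was not run, and the transcripts were searched in its place. No paired analysis was possible because the design has 1 group.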
